A study of Mus musculus with 6 samples.

Results

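*Tbx2*, *Tbx3*, *Tbx4*, *Tbx5*, *Tbx15*, *Tbx18* and *Tbx20* are 7 of the 21999 genes counted in cultured mouse cells labelled lung microvascular endothelial cells (LMVEC). They were chosen by name as T-box factors of lung and heart mesenchyme, with their levels in these libraries already known, so their own difference between genotypes is described here without a test. All 7 had enough reads to pass the filter on low counts, as 13609 genes of the table did. *Tbx2* and *Tbx4*, which lie side by side on chromosome 11, were higher in every library labelled Ptprz1-/- than in every Ptprz1+/+ library. *Tbx18* and *Tbx20* were lower in every library labelled Ptprz1-/-, and *Tbx3*, *Tbx5* and *Tbx15* overlapped between the genotypes.

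The cells came from SV129/B6 mice that were either Ptprz1+/+ or Ptprz1-/-, the latter lacking *Ptprz1*, which encodes a receptor-type protein tyrosine phosphatase, in the whole animal. Each of the 3 isolations per genotype pooled the lungs of 2 to 5 mice aged 3 to 8 weeks. The untreated cells of both genotypes were grown in medium with endothelial growth supplement and heparin until confluent, then taken out with magnetic beads against CD31, and their total RNA was sequenced. The libraries held 16392715 to 17709663 gene counts in Ptprz1+/+ and 14496881 to 15601584 in Ptprz1-/-. *Ptprz1* itself had 197 to 1837 reads in Ptprz1+/+ and 895 to 1320 in the other genotype, so it did not separate the genotypes, and the latter are called here the libraries labelled Ptprz1-/-. The labelled cell type was likewise checked against its markers. The summed level of 12 endothelial genes, among them *Pecam1* (the gene of CD31), was 24.2 to 598 CPM (read counts scaled to the size of the library), whereas 10 fibroblast genes, among them *Col1a1*, summed to 11575 to 27885 CPM. The endothelial sum was 598 CPM in Ptprz1+/+ replicate 3 and 199 CPM in replicate 3 labelled Ptprz1-/-, against 24.2 to 40.6 CPM in the other 4 libraries. In every library the fibroblast sum was far above the endothelial sum, so these markers do not show the RNA to be mainly endothelial. In bulk RNA, fewer cells of a type and less RNA per cell cannot be told apart.

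T-box factors are transcription factors that bind DNA through a shared domain, the T-box, and act in the patterning of heart, limb and lung. *Tbx2* and *Tbx3* encode mainly repressors and *Tbx5* an activator. In the developing lung, *Tbx2*, *Tbx3*, *Tbx4* and *Tbx5* are active in the mesenchyme, where *Tbx4* and *Tbx5* act together in the growth and branching of the airways. *Tbx2* and *Tbx4* form one gene pair on a chromosome, and *Tbx3* and *Tbx5* form another, a legacy of a duplicated ancestral pair. *Tbx15* and *Tbx18* are close relatives known from skeleton, skin, heart and urinary tract, and *Tbx20* is known from the heart.

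Because the family shares a domain, the coding sequences were compared to see whether reads of one member could be counted for another. The stretches of 60 bases in which the repressors *Tbx2* and *Tbx3* matched best without gaps are shown, from the GENCODE M21 coding sequences, 5′ to 3′, with the bases that differ in capitals.
Tbx2: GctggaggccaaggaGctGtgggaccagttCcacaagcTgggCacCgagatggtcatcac
Tbx3: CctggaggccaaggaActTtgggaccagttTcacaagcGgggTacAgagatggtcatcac
The stretches of *Tbx2* (coding bases 324 to 383) and *Tbx3* (318 to 377) matched at 53 of 60 bases.
No 2 members shared an exact run of more than 23 bases, the length found between *Tbx4* and *Tbx5* and between *Tbx15* and *Tbx18*. *Tbx2* and *Tbx4* shared at most 12 bases in a row. Transcripts of the other annotated genes were aligned to those of the members, and 1 hit of at least 100 bases was found. It was D030062O11Rik, a locus on the strand opposite *Tbx18* whose exons share 970 bases with those of *Tbx18*. This locus was not a row of the table, and the sources used here do not state whether counting used strand, so reads from it may be among those of *Tbx18*.

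**Figure D1:**
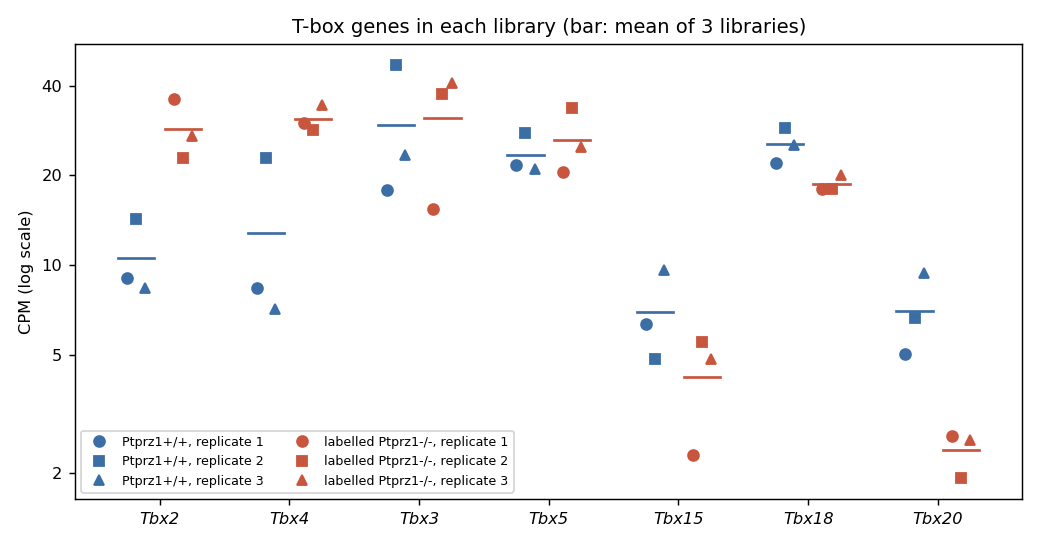
Level of each T-box gene in each of the 6 libraries, in CPM on a log scale, with points for libraries and bars for the mean of 3 libraries per genotype. The 3 libraries labelled Ptprz1-/- lie above the 3 Ptprz1+/+ libraries for *Tbx2* and *Tbx4* and below them for *Tbx18* and *Tbx20*. The ranges of the genotypes overlap for *Tbx3*, *Tbx5* and *Tbx15*.

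*Tbx2* (ENSMUSG00000000093, chr11:85832551-85841948 on GRCm38, plus strand) encodes a repressor that keeps embryonic lung mesenchyme dividing. It stood at 9.06, 14.3 and 8.39 CPM in Ptprz1+/+ replicates 1, 2 and 3. In replicates 1, 2 and 3 labelled Ptprz1-/- it stood at 36.0, 22.9 and 27.0 CPM. The lowest library labelled Ptprz1-/- was thus above the highest Ptprz1+/+ library. The means were 10.6 ± 3.23 CPM (SD, n = 3) and 28.6 ± 6.68 CPM (SD, n = 3), a fitted log2 fold change of 1.43 with an SE of 0.28, or 2.71-fold. Here and below a log2 fold change is the value labelled Ptprz1-/- minus that of Ptprz1+/+.

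*Tbx4* (ENSMUSG00000000094, chr11:85886422-85916097, plus strand) marks lung mesenchyme from the earliest buds and is known for its part in hindlimb and lung growth. Its levels were 8.40, 22.9 and 7.13 CPM in Ptprz1+/+ replicates 1, 2 and 3. Those labelled Ptprz1-/- held 30.0, 28.4 and 34.5 CPM in the same order. The groups did not overlap, and Ptprz1+/+ replicate 2 lay much nearer to the other genotype than to its own. The Ptprz1+/+ libraries spanned 3.21-fold from lowest to highest, whereas those labelled Ptprz1-/- spanned 1.21-fold. The means of 12.8 ± 8.74 and 31.0 ± 3.14 CPM (SD, n = 3 each) gave a log2 fold change of 1.27 with an SE of 0.45. Without Ptprz1+/+ replicate 2 the log2 fold change of *Tbx4* was 1.99, and without replicate 3 of that genotype 0.99. For *Tbx2* the same 6 omissions gave 1.24 to 1.71.

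The promoter of *Tbx4* was read because this gene was among the members that moved apart by genotype. RefSeq promoter sequence on GRCm38.p6 was at hand for 3 of the 7 members. That of *Tbx4*, the 250 bases before a RefSeq start, is given with CG dinucleotides in capitals. It lies at chr11:85896515-85896764 on the plus strand, inside the gene as the table delimits it, and so belongs to an internal start.
Tbx4 promoter: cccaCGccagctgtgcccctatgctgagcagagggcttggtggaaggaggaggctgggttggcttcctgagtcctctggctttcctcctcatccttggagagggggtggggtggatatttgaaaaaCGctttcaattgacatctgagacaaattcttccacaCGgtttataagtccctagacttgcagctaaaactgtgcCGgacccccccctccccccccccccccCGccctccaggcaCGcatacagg
It held 6 CG dinucleotides and 58.4% G and C. The letters GGTGTGA, the core that T-box proteins bind, were searched on both strands (TCACACC on the other) and were not found in this window. Of 32851 promoters of the same length, 3.33% held them. The shorter GTGTGA, which is part of the longer motif, was also not found, and 12.3% of the promoters held it.

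*Tbx2* and *Tbx4* lie on one strand with 44473 bases between them. The 20 tested genes within 1000 kb of them had log2 fold changes from -1.29 to 0.17. Of these 20, 2 had groups that did not overlap, both lower in libraries labelled Ptprz1-/- (background 3.73% in that direction). *Gm11444*, the gene of the table between *Tbx2* and *Tbx4*, had 9 reads over all 6 libraries. *2610027K06Rik*, on the opposite strand 0.328 kb from *Tbx2*, had 2, 0 and 2 reads in the Ptprz1+/+ libraries and 4, 3 and 12 in those labelled Ptprz1-/-, too few to be tested, and *Bcas3os2* had 1 read in all. *Bcas3*, 6.49 kb from *Tbx2*, averaged 20.5 and 22.7 CPM, a log2 fold change of 0.14 with an SE of 0.14. Of 11 genes of the table within 500 kb of the pair, 6 were tested with edgeR's quasi-likelihood test, and their log2 fold changes ran from -1.29 for *Brip1*, with an SE of 0.90, to 0.17 for *Ppm1d*, with an SE of 0.21. *Med13* averaged 121.7 CPM in both genotypes. None of the 6 passed an adjusted p of 0.05 (background 0% of 13609 genes) or an unadjusted one (background 2.69%), and none had groups that did not overlap (background 7.28%). Around all 7 members, 14 of 30 genes within 500 kb were tested, 6 with a positive and 8 with a negative log2 fold change, and none passed the test.

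**Figure D2:**
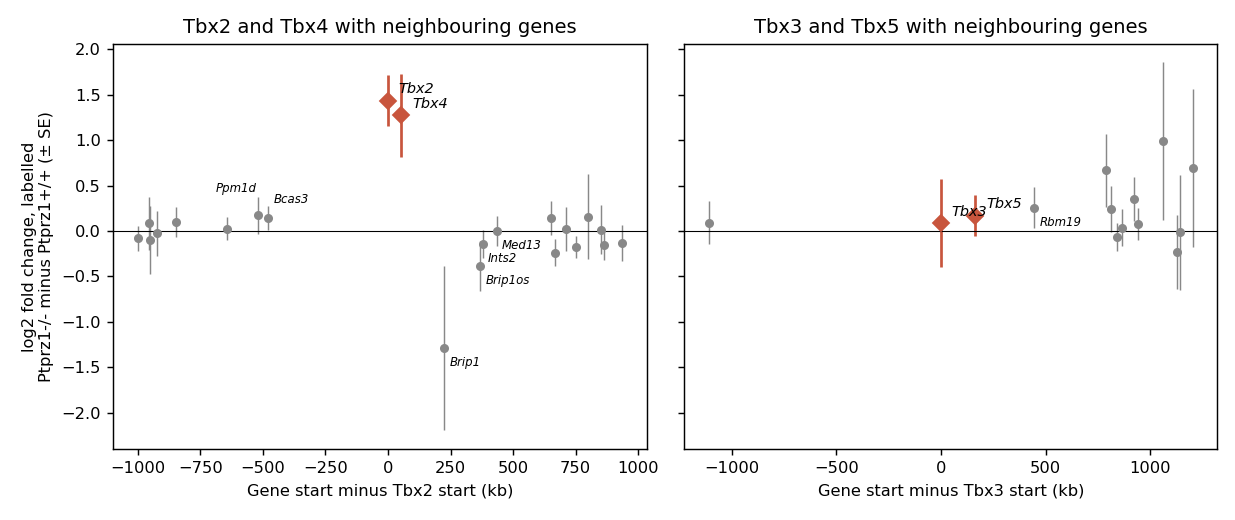
Fitted log2 fold changes (points, with SE bars) of the gene pairs *Tbx2* and *Tbx4* (left) and *Tbx3* and *Tbx5* (right), as diamonds, and of the tested genes within 1000 kb of them, as circles, against the distance between gene starts in kb. Genes within 500 kb are named, and the pair at left stands at 1.43 and 1.27 while its named neighbours lie between -1.29 and 0.17, and *Rbm19* at right lies at 0.26.

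*Tbx3* (ENSMUSG00000018604, chr5:119670669-119684724, plus strand), a repressor close to *Tbx2* in sequence, varied between libraries far more than between genotypes. Ptprz1+/+ replicates 1, 2 and 3 held 17.8, 47.1 and 23.4 CPM. Replicates 1, 2 and 3 labelled Ptprz1-/- held 15.4, 37.5 and 40.8 CPM. Both genotypes held a low and a high library, with spans of 2.64-fold and 2.65-fold. The log2 fold change was 0.08 with an SE of 0.48, from means of 29.4 ± 15.5 and 31.2 ± 13.8 CPM (SD, n = 3 each). Its SD within genotypes, 0.75 on the log2 scale, was above that of 85.8% of all genes tested. An antisense gene, *Tbx3os1*, shares 115 exonic bases with *Tbx3* by position, although the alignment above returned no hit for it. It had 0 to 9 reads in a library.

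*Tbx5* (ENSMUSG00000018263, chr5:119834663-119885218, plus strand) is known for heart septation, the forelimb and, with *Tbx4*, the lung bud. Its levels were 21.7, 27.6 and 20.9 CPM in Ptprz1+/+ replicates 1, 2 and 3. They were 20.5, 33.8 and 24.8 CPM in replicates 1, 2 and 3 labelled Ptprz1-/-. The groups overlapped, although replicate 1 labelled Ptprz1-/- was the lowest library and replicate 2 of that genotype the highest. The log2 fold change was 0.17 with an SE of 0.23. *Tbx3* and *Tbx5* are 149938 bases apart, with *Tbx3os2* between them at 3 reads in all. The 1 tested gene within 500 kb of that pair, *Rbm19*, gave 0.26 with an SE of 0.23.

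*Tbx15* (ENSMUSG00000027868, chr3:99240381-99354259, plus strand), a regulator of skeletal and muscle development, was scarce. Ptprz1+/+ replicates 1, 2 and 3 held 6.34, 4.84 and 9.59 CPM. Those labelled Ptprz1-/- held 2.30, 5.49 and 4.82 CPM in that order. Replicate 1 labelled Ptprz1-/- was the lowest library and Ptprz1+/+ replicate 3 the highest, while the other 4 interleaved. The log2 fold change was -0.72 with an SE of 0.42, and leaving out 1 library at a time moved it between -0.96 and -0.41, the latter without Ptprz1+/+ replicate 3.

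*Tbx18* (ENSMUSG00000032419, chr9:87702800-87731260, minus strand), known as a gene of mural cells and of the epicardium, was the steadiest member. Its Ptprz1+/+ levels were 22.0, 28.9 and 25.3 CPM in replicates 1, 2 and 3. Those labelled Ptprz1-/- were 17.99, 17.98 and 20.1 CPM. The groups did not overlap, although the gap between them was small beside the levels. The log2 fold change was -0.44 with an SE of 0.15. Its SD within genotypes was 0.15 on the log2 scale, and 19.2% of all genes tested had a lower one. The reads that D030062O11Rik may add to *Tbx18*, given above, could not be separated.

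*Tbx20* (ENSMUSG00000031965, chr9:24720812-24774303, minus strand), known for heart muscle and valves, was the lowest member per length in all 6 libraries. It had 83, 121 and 149 reads in Ptprz1+/+ replicates 1, 2 and 3, or 5.01, 6.65 and 9.40 CPM. It had 43, 28 and 39 reads in replicates 1, 2 and 3 labelled Ptprz1-/-, or 2.67, 1.92 and 2.58 CPM. The groups did not overlap, and the means of 7.02 ± 2.22 and 2.39 ± 0.407 CPM (SD, n = 3 each) were the farthest apart of any member on the log2 scale, at -1.55 with an SE of 0.32. Leaving out 1 library at a time gave -1.74 to -1.29. The 5 cardiomyocyte markers in the table, none of which passed the filter, summed to 0.686 to 1.76 CPM in 5 libraries and to 10.9 CPM in Ptprz1+/+ replicate 3, where *Tbx20* was also highest and *Tnnt2*, a troponin of heart muscle, made up 9.84 CPM. In that library *Ttn* stood at 0.946 CPM, *Actc1* and *Nppa* at 0.0631 CPM each and *Myl7* at 0. None of these was highest there, whereas the endothelial sum was, at 598 CPM. A link of *Tbx20* to these levels was not tested. *Actc1*, *Myl7* and *Nppa* were at 0 in at least 1 library.

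The 2 other promoters at hand belong to the members that were lower in every library labelled Ptprz1-/-, and are printed for comparison with that of *Tbx4*, again as the 250 bases before the start with CG dinucleotides in capitals. They lie on the minus strand at chr9:87731261-87731510 (*Tbx18*) and chr9:24774304-24774553 (*Tbx20*), GRCm38.p6.
Tbx18 promoter: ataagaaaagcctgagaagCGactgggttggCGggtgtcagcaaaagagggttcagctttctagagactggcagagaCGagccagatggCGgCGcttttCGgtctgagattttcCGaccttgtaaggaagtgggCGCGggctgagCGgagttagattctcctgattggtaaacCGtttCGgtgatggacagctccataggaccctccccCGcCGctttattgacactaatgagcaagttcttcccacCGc
Tbx20 promoter: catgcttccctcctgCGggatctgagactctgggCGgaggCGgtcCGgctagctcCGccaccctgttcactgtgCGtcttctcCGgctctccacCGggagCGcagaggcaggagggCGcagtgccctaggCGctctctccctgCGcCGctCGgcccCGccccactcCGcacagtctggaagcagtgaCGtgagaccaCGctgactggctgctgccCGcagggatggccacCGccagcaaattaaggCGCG
That of *Tbx18* held 15 CG dinucleotides and 54% G and C, and an exon of D030062O11Rik overlaps it. That of *Tbx20* held 22 CG dinucleotides and 68.8% G and C, more than 89.6% of all promoters. Neither held GGTGTGA or GTGTGA on either strand.

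Across the 7 members, 4 had groups that did not overlap, 2 in each direction. Among all genes tested, groups did not overlap for 7.28%, 3.55% in the upward and 3.73% in the downward direction. Since this same contrast chose the members, nothing is read from their share. The log2 fold change was above 0 in 4 members and in 49.1% of all genes. It was at least 1 in size in 3 members and in 5.5% of all genes, and at least as large as that of *Tbx4* in 3.31%. Over the whole table, edgeR's adjusted p called 0 of 13609 genes (0%), and 366 genes (2.69%) had an unadjusted p under 0.05. DESeq2 called 31 of 15972 genes (0.194%), of which 10 were higher (0.0626%) and 21 lower (0.131%).

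**Figure D3:**
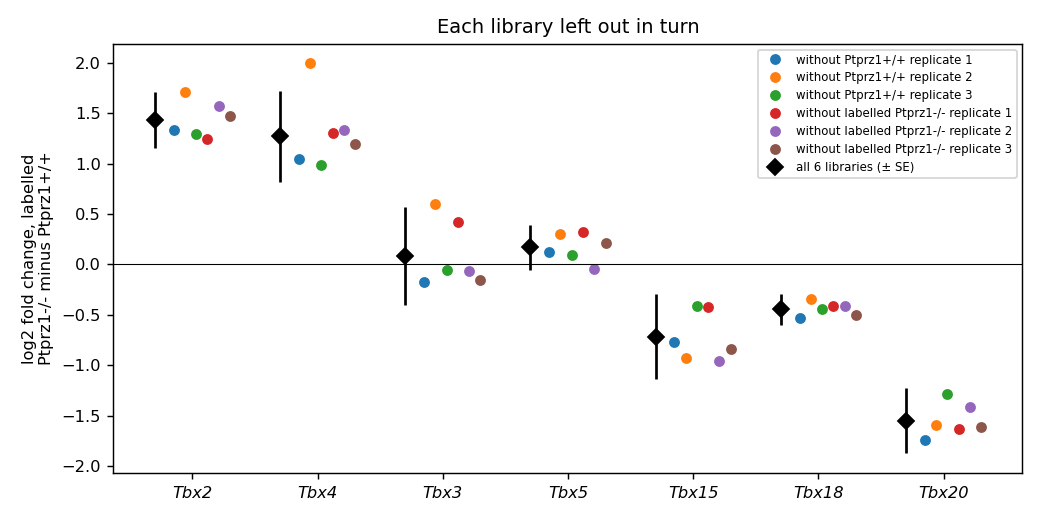
Fitted log2 fold change of each T-box gene with all 6 libraries and with each library left out in turn. *Tbx2* stays between 1.24 and 1.71, *Tbx4* moves from 0.99 to 1.99, *Tbx20* stays between -1.74 and -1.29, and *Tbx3* and *Tbx5* fall on both sides of 0.

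Levels of different genes were compared per length, as FPKM, the read counts scaled by gene length and library total. The order of the members differed between the genotypes. In Ptprz1+/+ the highest means were those of *Tbx3* at 5.92 ± 3.32 FPKM, *Tbx5* at 5.91 ± 1.13 and *Tbx18* at 5.40 ± 0.876 (SD, n = 3). *Tbx4* at 4.08 ± 2.92, *Tbx2* at 2.91 ± 0.99, *Tbx15* at 1.91 ± 0.621 and *Tbx20* at 1.08 ± 0.325 FPKM followed. In libraries labelled Ptprz1-/- the order began with *Tbx4* at 9.92 ± 1.46 FPKM and *Tbx2* at 8.00 ± 2.15, ahead of *Tbx5* at 6.68 ± 1.37 and *Tbx3* at 6.28 ± 2.78. *Tbx18* at 4.03 ± 0.429, *Tbx15* at 1.18 ± 0.444 and *Tbx20* at 0.376 ± 0.0816 FPKM closed it. In Ptprz1+/+, each neighbour in the order overlapped the next in its range over libraries, so those steps are not resolved. In the other genotype, the steps from *Tbx18* to *Tbx15* and from *Tbx15* to *Tbx20* had separate ranges, and each of the other steps joined genes with overlapping ranges. *Tbx18* exceeded *Tbx15*, and *Tbx15* exceeded *Tbx20*, in 6 of 6 libraries. The highest member was *Tbx5*, *Tbx3* and *Tbx18* in Ptprz1+/+ replicates 1, 2 and 3, and *Tbx2*, *Tbx4* and *Tbx4* in those labelled Ptprz1-/-. Against all genes tested, mean FPKM placed *Tbx4* at the 48.2th percentile, *Tbx2* at the 41.8th and *Tbx20* at the 9.79th.

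*Tbx2* and *Tbx4* together made up 24.0%, 30.9% and 18.9% of the summed FPKM of the 7 genes in Ptprz1+/+ replicates 1, 2 and 3. In libraries labelled Ptprz1-/- their share was 59.6%, 41.3% and 47.2%. The shares of the groups did not overlap, but the levels of both genes did not either, so nothing further is read from the shares. *Tbx3* and *Tbx5* together made up 42.2%, 45.4% and 41.5%, and then 25.4%, 43.4% and 37.2%, so these shares overlapped. The sum itself was 21.1, 37.2 and 23.3 FPKM in Ptprz1+/+ and 33.7, 35.0 and 40.7 FPKM in the other genotype.

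Within the pair, the ratio of *Tbx4* to *Tbx2* FPKM was 1.07, 1.84 and 0.977 in Ptprz1+/+ replicates 1, 2 and 3. It was 0.960, 1.43 and 1.47 in those labelled Ptprz1-/-. The means of 1.29 ± 0.475 and 1.28 ± 0.282 (SD, n = 3 each) differed by far less than the spread between libraries. The ratio of *Tbx2* to *Tbx3*, the 2 repressors, was 0.699, 0.417 and 0.493 in Ptprz1+/+ and 3.21, 0.840 and 0.909 in libraries labelled Ptprz1-/-. The groups did not overlap, but those of *Tbx2* alone did not either, so nothing further is read from this. Replicate 1 labelled Ptprz1-/- stood far above the rest, with the highest *Tbx2* and the lowest *Tbx3* of all libraries. The ratio of *Tbx4* to *Tbx5* was 0.484, 1.03 and 0.425, then 1.83, 1.05 and 1.74, with the second replicates of both genotypes nearly level.

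**Figure D4:**
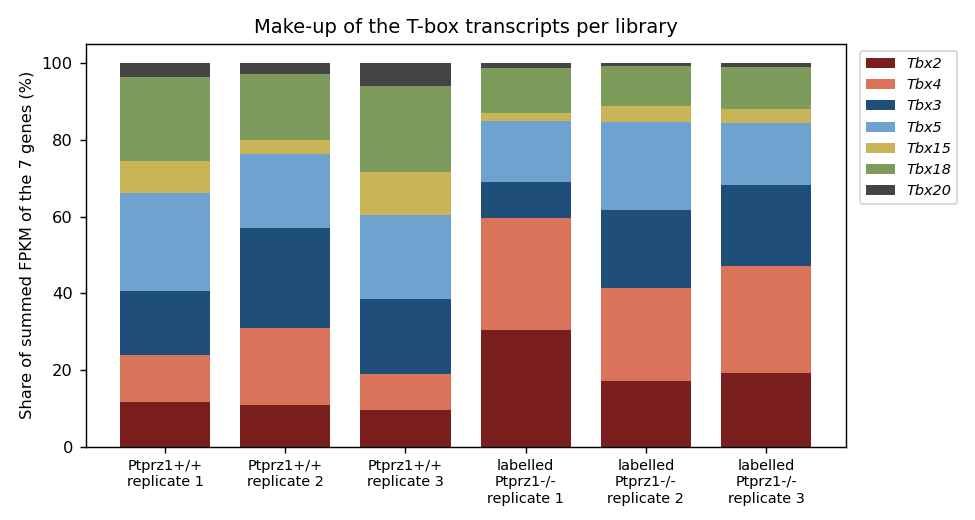
Share of each T-box gene in the summed FPKM of the 7 genes, in percent, as 1 stacked bar per library. *Tbx2* and *Tbx4* together fill 18.9% to 30.9% of the bars of Ptprz1+/+ and 41.3% to 59.6% of those labelled Ptprz1-/-.

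For each member the tested genes with the most similar pattern over the 6 libraries were sought, by the root-mean-square (RMS) difference of centred log2 CPM. *Tbx4* was nearest to *Cygb*, a globin of fibroblasts, at an RMS difference of 0.34, and next to *Tbx2* at 0.35. *Cygb* had 64.6, 139.4 and 69.9 CPM in Ptprz1+/+ and 172.8, 211.8 and 161.1 CPM in libraries labelled Ptprz1-/-. Among the genes most like *Tbx2*, *Tbx4* ranked 5 of 13608, after *Rbm46* (0.26), *Gm7206* (0.29), *Slmo1* (0.30) and 1 other. These ranks rest on the genotype difference. With the genotype means removed, an alternative added after seeing the data, *Tbx4* ranked 5240 for *Tbx2*, and *Tbx2* ranked 761 for *Tbx4*. The RMS difference also counts unlike sizes of deviation, and *Tbx2* deviated by an RMS of 0.303 and *Tbx4* by 0.527. These ranks thus do not show whether the 2 genes moved together within genotypes. The 2 genes then deviated in the same direction in Ptprz1+/+, with replicate 2 above its group mean by 0.47 (*Tbx2*) and 1.03 (*Tbx4*) on the log2 scale. In replicate 1 labelled Ptprz1-/-, *Tbx2* was 0.35 above its group mean and *Tbx4* 0.04 below.

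The pattern of *Tbx3* was followed by *Flrt2* (RMS difference 0.14), *Gem* (0.16) and *Mmp2* (0.18), a matrix metalloprotease of fibroblasts. *Flrt2* had 104.1, 280.2 and 130.04 CPM in Ptprz1+/+ and 72.3, 178.9 and 206.2 CPM in libraries labelled Ptprz1-/-, so the low and high libraries were those of *Tbx3*. *Tbx5* was closest to *Cdc42ep4* (0.07), *Nr1d1* (0.08), a receptor of the circadian clock, and *Usp28* (0.08). *Tbx15* was closest to *Wbscr17* (0.17), *Lhx6* (0.18) and *Adra1b* (0.19). *Tbx18* was closest to *Zfp518b* (0.05), *Pgm1* (0.05) and *Ckap4* (0.06). *Gcnt1* (0.08), a glycosyltransferase, and *Islr2* (0.21) were among the 3 genes closest to *Tbx20*. *Gcnt1* had 9.36, 12.6 and 17.1 CPM in Ptprz1+/+ and 5.21, 4.26 and 5.09 CPM in libraries labelled Ptprz1-/-, so its groups did not overlap either. Nearness over 6 libraries is a description of these libraries, chosen out of 13608 genes.

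Among genes tied to T-box factors, 29 were tested in 4 lists by edgeR's quasi-likelihood test. None of them passed an adjusted p of 0.05, but none of all 13609 genes did (0%), so this says nothing about the lists. None had an unadjusted p under 0.05 either, against 2.69% of all genes. DESeq2 called 0 of 31, against 0.194% of all genes it tested. Of 8 tested genes that *Tbx2* or *Tbx3* are known to repress, 4 had a positive and 4 a negative log2 fold change, with a median of 0.18 against -0.0047 over all genes. *Cdkn1a*, the cell-cycle inhibitor p21, averaged 239.8 ± 76.1 CPM in Ptprz1+/+ and 316.7 ± 110.4 CPM (SD, n = 3 each) in the other genotype, a log2 fold change of 0.40 with an SE of 0.34. *Ndrg1* gave 0.72 (SE 0.47), *Cdkn2a* -0.04 (SE 0.44) and *Gja1*, the gap junction protein connexin 43, -0.47 (SE 0.41). *Gja1* was highest at 241.4 CPM in Ptprz1+/+ replicate 2. The groups of all 4 genes overlapped.

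Of 10 tested signals of airway branching around *Tbx4* and *Tbx5*, 7 had a positive log2 fold change, with a median of 0.28. *Fgf10*, the growth factor of lung mesenchyme that *Tbx4* and *Tbx5* are known to sustain, was at 37.6, 53.9 and 45.9 CPM in Ptprz1+/+ and at 27.4, 136.2 and 52.6 CPM in libraries labelled Ptprz1-/-. Only replicate 2 of the latter stood high. *Tbx5* was highest in that library, at 33.8 CPM, and *Tbx4* was not. A link between these levels was not tested. *Fgf7* gave a log2 fold change of -0.71 (SE 0.50), *Foxf1*, a forkhead factor of lung mesenchyme, 0.33 (SE 0.21), *Spry2*, an inhibitor of FGF signalling, -0.15 (SE 0.40) and *Bmpr1a* 0.17 (SE 0.12). Of 9 tested partners of T-box proteins, 4 were positive and 5 negative, with a median of -0.07. *Wwtr1* and *Yap1*, the co-activators TAZ and YAP, gave 0.07 (SE 0.15) and -0.07 (SE 0.11), and the co-repressors *Tle3* and *Tle1* gave -0.15 (SE 0.26) and 0.41 (SE 0.20). *Hdac2*, a histone deacetylase, was the 1 partner of 9 whose groups did not overlap (background 7.28%), at 78.3 ± 6.30 and 68.6 ± 0.941 CPM (SD, n = 3 each).

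The other T-box genes mostly had few reads. Of 10 listed, 5 were in the table and 2 were tested. *Mga*, which carries a T-box beside a helix-loop-helix domain, was at 93.1 ± 2.06 and 88.2 ± 12.3 CPM (SD, n = 3 each). *Tbx6* averaged 1.11 and 1.47 CPM. *Tbx1* had 71 reads in Ptprz1+/+ replicate 3 and 1 to 9 in the other 5 libraries. *Eomes* had 0 to 4 reads and *Tbr1* 0 to 3.

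**Figure D5:**
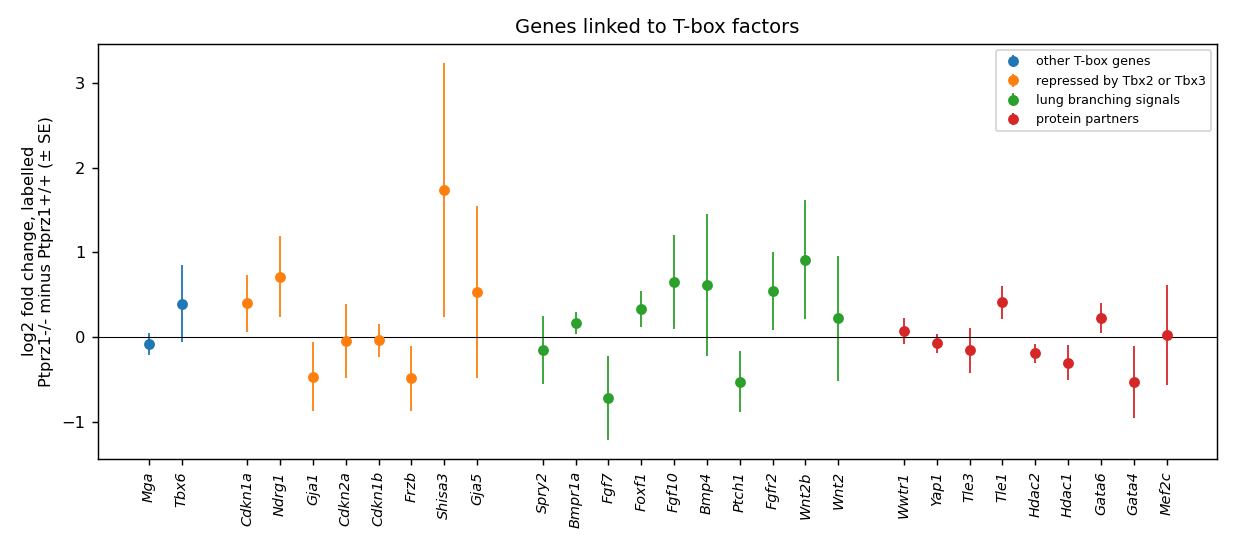
Fitted log2 fold changes (points, with SE bars) of the 29 tested genes in the 4 lists tied to T-box factors, coloured by list. The medians of the lists lie between -0.07 and 0.28. Of the 29 genes, 0 pass the adjusted test, as do 0% of all 13609 genes tested.

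Markers of other cells moved between the libraries beside these genes. All 7 tested mesothelial markers, with *Msln*, *Upk3b* and *Wt1* among them, had a positive log2 fold change with a median of 2.44, and 1 of them had an unadjusted p under 0.05. Over all genes tested, 49.1% had a positive log2 fold change and 2.69% an unadjusted p under 0.05. The mesothelial sum was 229, 57.1 and 101 CPM in Ptprz1+/+ replicates 1, 2 and 3 and 1471, 123 and 312 CPM in those labelled Ptprz1-/-. The highest *Tbx2* and the highest mesothelial sum thus fell in the same library, replicate 1 labelled Ptprz1-/-, while replicate 2 labelled Ptprz1-/- was below a Ptprz1+/+ library in the mesothelial sum and above it in *Tbx2* and *Tbx4*. Of that list only *Muc16* was at 0 anywhere, in 2 libraries. Smooth muscle and pericyte markers summed to 3735, 402 and 1289 CPM in Ptprz1+/+ and to 4077, 834 and 895 CPM in the other genotype, with replicate 1 of each genotype highest. *Acta2* and *Tagln* made up most of that sum and, like *Des*, *Cnn1* and *Myh11*, were highest in replicate 1 of each genotype. *Notch3*, *Cspg4* and *Rgs5* did not share that order, and neither did *Tbx18*, a mural gene. The fibroblast sum ranged from 17962 to 26233 CPM and from 11575 to 27885 CPM, the lymphatic endothelial sum from 232 to 328 CPM and from 265 to 342 CPM. Epithelial and leukocyte markers stayed under 2.42 and 8.25 CPM in the sums, with *Epcam*, *Cdh1*, *Sftpc* and *Nkx2-1* at 0 in some libraries. All 12 endothelial markers had a negative log2 fold change, and 0 of them had an unadjusted p under 0.05. Of the 2 libraries where their sum was high, Ptprz1+/+ replicate 3 had the lowest *Tbx4* and replicate 3 labelled Ptprz1-/- the highest. The part of these cell types in the levels of the T-box genes was not tested.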

How the data were processed

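RNA of 3 Ptprz1+/+ and 3 Ptprz1-/- isolations labelled LMVEC was sequenced by the authors, with groups and replicate numbers taken from the sample labels. The authors deposited a table of 21999 genes with raw read counts per gene and library. The deposited FPKM values followed from these counts, the gene length and the library total. The submitters' processing notes name STAR, TopHat, HTSeq, DESeq2, edgeR, GRCm38 and mm10 without a role, and versions and use of strand are not given in the sources used here. The authors' own fold changes, p-values and lists of called genes were not used.

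The whole table was fitted by the quasi-likelihood model of edgeR 4.0.16 (R 4.3.3), with TMM scaling, genes kept by filterByExpr and a single genotype term. P-values were adjusted over all genes by Benjamini-Hochberg and set against 0.05. The SE was taken as the size of the log2 fold change over the root of F. CPM uses the TMM-scaled library size. The precision of a level is limited by the reads of the gene, in libraries of 14496881 to 17709663 counts, and by the spread between isolations. The script was tested on simulated data. Replicates are separate isolations. Likeness used log2 CPM with a prior count of 2. Transcripts (GENCODE M21, which holds 98.9% of the identifiers) were aligned with minimap2 2.31. Promoters are from RefSeq.

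The members, the lists and the comparisons were chosen with earlier results of these data known. Named are all members, the 4 most abundant genes of each list and any with separate groups, genes near or overlapping the members and the 3 most similar genes, of which 1 is not reported here. *Fgf10*, *Tbr1*, *Ppm1d*, *Brip1*, *Med13*, *Rbm19*, *Snap91* and *Wars2* were added after their values were seen. So were the markers named for being at 0 and the named smooth muscle, pericyte and lymphatic markers. Alternatives were DESeq2 1.42.0, other scaling, filters and prior counts, a replicate block, a wider window and omission of each library.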

Additional observations from a re-analysis of the deposited data

How the results depend on the processing

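Of 77 alternative values of the members, 71 stayed within 1 SD of libraries of a genotype (log2 scale) from the value reported, 1 moved further and 5 changed sign, all 6 of the latter on omission of 1 library. The log2 fold change of *Tbx4* was 1.99 without Ptprz1+/+ replicate 2. That of *Tbx3* was -0.17 without Ptprz1+/+ replicate 1, -0.055 without replicate 3 of that genotype, and -0.067 and -0.16 without replicates 2 and 3 labelled Ptprz1-/-, and reached 0.60 without Ptprz1+/+ replicate 2. That of *Tbx5* was -0.049 without replicate 2 and 0.33 without replicate 1 labelled Ptprz1-/-. The cause was not tested.

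By edgeR, 0 genes passed the adjusted threshold with relative log expression (RLE) scaling, without any filter and with at least 10 reads per library. The same held on omission of any library (lowest 0, highest 0). DESeq2 called 31 genes, and the cause was not tested. Neither tool called a gene of the lists or within 500 kb of a member, and edgeR called 0 of 55 within 1000 kb. Over all genes tested, edgeR called 0% and DESeq2 0.194%.

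With the replicate number as a block, edgeR also called 0 genes, with 690 at an unadjusted p under 0.05 against 366, and the log2 fold changes were 1.45 for *Tbx2* and 1.47 for *Tbx4*. Deviations of same-numbered libraries correlated at 0.45, -0.06 and 0.52 for replicates 1, 2 and 3. Those of differently numbered libraries correlated at -0.57 to 0.092. Replicates 1 and 3 were thus closest to their own number in the other genotype, and replicate 2 was not. The sample labels name no pairs, and the main fit took none. Whether same-numbered libraries shared an effect was not tested. Changing the prior count to 0.5 kept 19 of the 21 most similar genes. At 1.92 CPM, the lowest level of *Tbx20*, 28 reads limit the precision.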

Other observations

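Within 1000 kb of the members, 55 of 97 genes were tested and 1 had an unadjusted p under 0.05, a smaller share than the 2.69% of all genes tested. This was *Snap91*, 822 kb from *Tbx18*, at 1.41 ± 0.279 CPM in Ptprz1+/+ and 0.718 ± 0.0778 CPM in libraries labelled Ptprz1-/- (SD, n = 3 each), with a log2 fold change of -0.96 and an SE of 0.34 by edgeR. It did not pass the adjusted test. *Wars2*, 1.20 kb from *Tbx15*, averaged 11.5 and 13.9 CPM, a log2 fold change of 0.28 with an SE of 0.22.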
